A study of Sus scrofa domesticus with 9 samples.

Results

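Methionine, cysteine and taurine metabolism in the preterm liver is described here through 10 enzymes: MAT1A, MAT2A, GNMT, AHCY, BHMT, CBS, CTH, CDO1, CSAD and PEMT. They were chosen by name for their place in the pathway and were looked up by gene symbol among 1054 genes with counts in every library and, failing that, among 16223 genes for which only the authors' mean was used. All 1054 genes had passed the authors' adjusted p of 0.05 and log2 fold change of 1 between the feeding groups. Counts per library were found for 3 of the 10, BHMT, CTH and CDO1, and a member without them may have been left out by that selection. The authors' mean alone was found for 6, and PEMT was matched to no entry.

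The livers came from preterm Yorkshire piglets delivered by caesarean section and were sampled from the right median lobe on day of life (DOL) 15. The bottle-fed group (n = 3) received a sow milk replacer after being weaned off PN by DOL 3. The parenteral nutrition (PN) group (n = 6) stayed on an infused mixture of amino acids and glucose, with a soybean oil lipid emulsion and multivitamins, and was given a daily gavage of the medium-chain triglyceride vehicle. All animals carried a central venous catheter and started on PN, and no allele or transgene distinguished the groups. The groups came from separate sows, so feeding, litter and vehicle cannot be told apart. Each library is 1 animal, and PN liver 5, which the study set aside as an outlier, was left out of the main comparison of 5 PN with 3 bottle-fed livers and is given beside it. The bottle-fed libraries held 17106838 to 24025142 counts, and the PN libraries 17337946 to 23421807.

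Methionine is activated in hepatocytes to S-adenosylmethionine, the methyl donor of most methylation reactions, and the homocysteine left afterwards is either methylated back to methionine or passed through transsulfuration to cysteine. Cysteine feeds protein, glutathione and, after oxidation and decarboxylation, taurine, the amino acid that is joined to bile acids in bile salts. Transsulfuration matures late in the newborn, and cysteine and taurine are for that reason regarded as conditionally essential in preterm infants.

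BHMT, CTH and CDO1 were all lower in PN than in bottle-fed livers, with mean normalized counts at 48.6%, 50.8% and 33.5% of the bottle-fed mean. For none of them did a PN liver reach the lowest bottle-fed liver. Of the 994 genes tested, all picked by the authors on this same contrast, 45.7% were called lower with PN. For 42.2%, every PN liver of the main comparison lay below every bottle-fed liver. BHMT returns homocysteine to methionine with betaine as methyl donor, CTH releases cysteine from cystathionine, and CDO1 oxidises cysteine on the way to taurine. The stretch of 250 bases before the RefSeq transcription start of each is printed because these are the members with counts per library. Only genes picked by the authors on this same contrast had such counts, so a change in each was set in advance. The sequences are RefSeq's, from Sscrofa11.1, which is also the build of the counted gene models. They lie at chr2:87910843-87911092 on the plus strand for BHMT, chr6:142486353-142486602 on the minus strand for CTH and chr2:119940691-119940940 on the minus strand for CDO1. Capitals mark matches, on either strand, to the TATA box (TATAAA), the CCAAT box (CCAAT), the GC box (GGGCGG), the E-box (CACGTG) or the amino acid response element (TGATGNAAN).
BHMT: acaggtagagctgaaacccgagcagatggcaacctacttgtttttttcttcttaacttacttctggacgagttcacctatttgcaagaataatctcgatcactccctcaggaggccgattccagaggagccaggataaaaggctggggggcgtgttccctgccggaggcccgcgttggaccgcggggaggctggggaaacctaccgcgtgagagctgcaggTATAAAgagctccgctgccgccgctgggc
CTH: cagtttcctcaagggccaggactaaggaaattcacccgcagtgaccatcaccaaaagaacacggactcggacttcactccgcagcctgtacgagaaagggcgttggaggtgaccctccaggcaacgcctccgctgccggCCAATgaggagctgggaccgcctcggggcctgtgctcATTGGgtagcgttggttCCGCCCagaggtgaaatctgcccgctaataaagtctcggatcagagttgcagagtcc
CDO1: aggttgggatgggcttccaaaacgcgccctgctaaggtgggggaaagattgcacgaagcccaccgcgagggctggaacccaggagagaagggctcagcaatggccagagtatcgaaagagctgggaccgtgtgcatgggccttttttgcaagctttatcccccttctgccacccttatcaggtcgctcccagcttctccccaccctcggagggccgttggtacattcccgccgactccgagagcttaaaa

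The BHMT window held 1 match, a TATA box from 29 to 24 bases before the start, a motif found in 9.77% of 19556 windows of the same length before RefSeq genes. The CTH window held 3 matches, a CCAAT box from 111 to 107 bases before the start, another on the opposite strand from 74 to 70 bases, and a GC box on the opposite strand from 57 to 52 bases. CCAAT boxes were found in 31.9% and GC boxes in 45.9% of all windows. The CDO1 window held 0 matches, although its GC content of 58.8% equalled that of CTH and lay near the 56.8% of BHMT. The E-box, found in 6.39% of all windows, and the amino acid response element, found in 2.39%, had no match in the 3 members. An inverted repeat for the bile acid receptor FXR, also searched, matched 0 of the 19556 windows. No motif was shared by the 3 windows. These are matches of letters and no factor was measured.

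CDO1, cysteine dioxygenase, the iron enzyme that turns cysteine into cysteine sulfinate, had the largest decrease of the 3 members. Its normalized counts were 3879, 3064 and 4443 in bottle-fed livers 1 to 3. They were 864, 2307, 837, 971 and 1372 in PN livers 1, 2, 3, 4 and 6, and 1789 in PN liver 5. PN livers 1, 3 and 4 lay close together at the low end, PN liver 2 was the highest, and the groups did not overlap with or without PN liver 5. The means were 3795 ± 693 (SD, n = 3) in bottle-fed and 1270 ± 618 (SD, n = 5) in PN livers, a log2 fold change of -1.58 (SE 0.33) with an adjusted p of 0.00142 by edgeR's quasi-likelihood test. The two-sided exact permutation test on log2 values gave p = 0.0179, the smallest that 56 splits of 8 livers allow.

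CTH, cystathionine gamma-lyase, which splits cystathionine into cysteine and 2-oxobutyrate, was even in the bottle-fed livers and uneven in the PN livers. Its normalized counts were 7568, 8222 and 8424 in bottle-fed livers 1 to 3. They were 2276, 3003, 7019, 2810 and 5398 in PN livers 1, 2, 3, 4 and 6, and 2308 in PN liver 5. PN liver 3 came within reach of the bottle-fed group and PN liver 6 lay between, whereas the other 4 PN livers formed a low cluster, and the groups did not overlap. The means were 8071 ± 448 (SD, n = 3) and 4101 ± 2025 (SD, n = 5), a log2 fold change of -0.98 (SE 0.35, adjusted p = 0.0172 by edgeR). The exact permutation test gave p = 0.0357. Without bottle-fed liver 3 the adjusted p by edgeR was 0.0503, with a log2 fold change of -0.94, and the exact test of CTH lost its call whichever of the 8 livers was left out.

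BHMT, betaine-homocysteine methyltransferase, is an enzyme of the liver and kidney that draws on the choline and betaine of the diet. Its normalized counts were 36403, 34913 and 45549 in bottle-fed livers 1 to 3. They were 20946, 13567, 20807, 13400 and 26001 in PN livers 1, 2, 3, 4 and 6, and 13532 in PN liver 5. The PN livers fell into a lower set, livers 2, 4 and 5, and a higher set, livers 1, 3 and 6, and all lay below the bottle-fed group. The means were 38955 ± 5759 (SD, n = 3) and 18944 ± 5407 (SD, n = 5), a log2 fold change of -1.04 (SE 0.29, adjusted p = 0.00509 by edgeR), and the exact permutation test gave p = 0.0179.

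**Figure D1:**
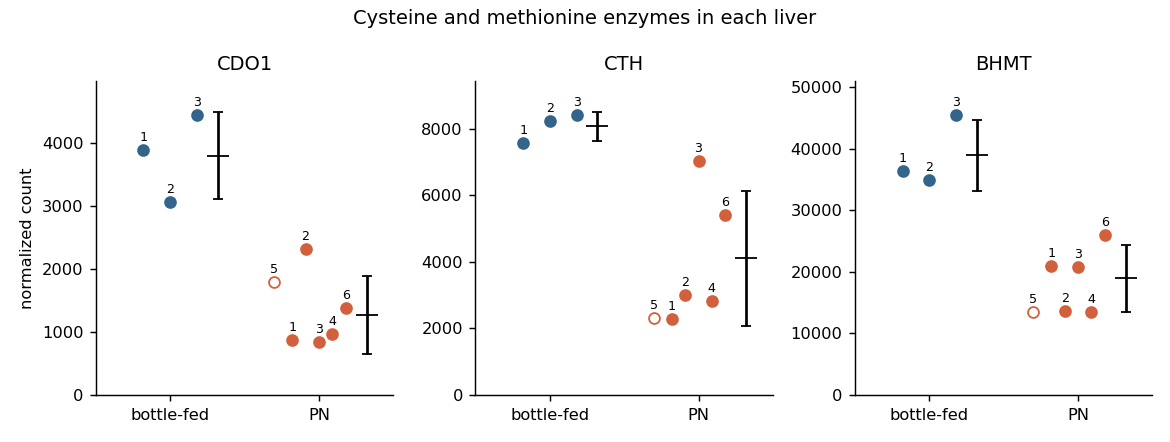
Normalized count of CDO1, CTH and BHMT on the vertical axes, each from 0, in bottle-fed (blue) and PN livers (red), with the liver's number above each point. The open point is PN liver 5, which is outside the mean and SD drawn in black, and in each panel every PN liver lies below the lowest bottle-fed liver.

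These calls carry little weight of their own, because every one of the 1054 genes with counts per library had been picked by the authors on this same contrast. Of the 994 genes tested, 45.7% were called lower and 54.2% higher with PN, and 1 was not called. The exact tests concern genes picked in the same way. Groups that did not overlap, with every PN liver lower, were found for 42.2% of the genes, and with every PN liver higher for 44%. The median log2 fold change was -1.04 over the 3 members and -1.44 over the 454 genes that were lower, so that the decrease of BHMT and CTH was smaller and that of CDO1 larger than the median decrease. RNA per cell and the number of cells of a type cannot be told apart in these bulk samples.

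Per transcript length, as FPKM, fragments per kilobase scaled to the library total, BHMT and CTH stood at a similar level and CDO1 below them, an order that rests on the counted lengths of 8608 bases for BHMT, 1918 for CTH and 5691 for CDO1, the first and last of which take in other genes, as given further on. In bottle-fed livers the FPKM was 230 ± 33.9 for BHMT, 214 ± 11.5 for CTH and 33.9 ± 6.20 for CDO1 (SD, n = 3). In PN livers it was 111 ± 31.7, 108 ± 53.2 and 11.3 ± 5.49 (SD, n = 5). The gap between BHMT and CTH was within the spread in both groups, while CDO1 lay below both in each liver.

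Whether CDO1 fell further than the other enzymes was tested on the ratio of FPKM values within each liver, a test added after the data were seen. CTH stood 5.79, 7.96 and 5.63 times as high as CDO1 in bottle-fed livers 1 to 3. The ratio was 7.81, 3.86, 24.9, 8.59 and 11.7 in PN livers 1, 2, 3, 4 and 6, on both sides of the bottle-fed range. The log2 ratio was 0.57 higher with PN (exact permutation test, p = 0.411, adjusted over 3 pairs 0.616). That of BHMT over CDO1 was 0.60 higher (exact p = 0.304, adjusted 0.616) and that of BHMT over CTH 0.03 higher (exact p = 0.893, adjusted 0.893). A larger decrease of CDO1 was therefore not shown over the spread between livers.

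The PN livers differed in which enzyme was lowest. CDO1 was lowest relative to its bottle-fed mean in PN livers 1, 3, 4 and 6, at 22.8%, 22.1%, 25.6% and 36.1%. In PN liver 2, CDO1 was the highest of the 3 at 60.8% while BHMT was at 34.8%, and in PN liver 5 CTH was lowest at 28.6%. PN liver 3 had the widest gap, with CTH at 87.0% and CDO1 at 22.1%, and PN liver 4 the narrowest, from 25.6% to 34.8%. The highest PN liver exceeded the lowest of the 5 by 1.94 times for BHMT, 3.08 times for CTH and 2.76 times for CDO1. The coefficient of variation of CTH was 5.54% in bottle-fed and 49.4% in PN livers, against 14.8% and 28.5% for BHMT and 18.3% and 48.6% for CDO1.

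**Figure D2:**
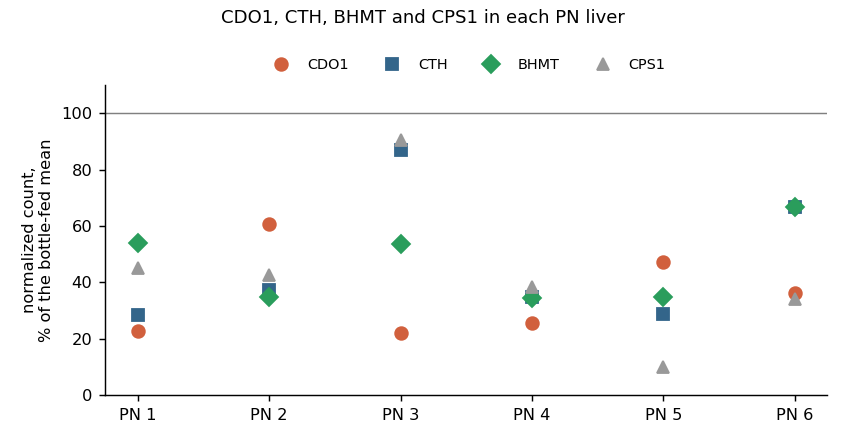
Normalized count of CDO1 (circles), CTH (squares), BHMT (diamonds) and the urea cycle gene CPS1 (triangles) in each of the 6 PN livers, as a percentage of the bottle-fed mean, which is the line at 100. CTH and CPS1 are near the line in PN liver 3 while CDO1 is at 22.1%, and CPS1 is at 9.81% in PN liver 5.

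Across the 6 PN livers the members did not follow one another closely. For BHMT and CTH, Pearson's r was 0.62 (permutation p = 0.242, adjusted over 3 relations 0.510) and Spearman's rho 0.26 (permutation p = 0.658), and r was 0.45 without PN livers 4 and 6. For BHMT and CDO1, r was -0.46 (permutation p = 0.340, adjusted 0.510) and rho -0.26 (permutation p = 0.658), with an r of -0.98 without the same 2 livers. For CTH and CDO1, r was -0.27 (permutation p = 0.567, adjusted 0.567) and rho -0.14 (permutation p = 0.803), and r turned to 0.39 without PN livers 3 and 6. The adjusted p of each rho was 0.803. The 2 livers left out were each time those farthest from the median of the first gene named. So few livers then remain that such an r can be large without any relation, and it was not tested.

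The genes whose levels varied most like each member, after removal of the group means over 8 livers, were looked up among the other 993 genes tested. For CDO1 they were CBX2 (r = 0.99), UNC5A (r = 0.93) and KLB (r = 0.92), the last of which encodes beta-Klotho, the coreceptor of the FGF19 and FGF21 hormones. For CTH they were the interferon-induced genes IFIT1 (r = 0.98) and MX1 (r = 0.97) and the tyrosine catabolism gene HGD (r = 0.96). For BHMT they were the alcohol dehydrogenase ADH4 (r = 0.97), the transcription factor KLF6 (r = 0.96) and the potassium channel KCNN2 (r = 0.95). With PN liver 5 included, r was 0.96 for HGD and 0.93 for KLB, but 0.10 for IFIT1, 0.23 for MX1 and 0.28 for KLF6. ADH4 then had 0.60, KCNN2 0.74, CBX2 0.88 and UNC5A 0.77. These correlations are a description over few livers, which share their normalization and were searched over many genes.

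The interval counted as a gene held other RefSeq genes beside the enzyme for BHMT and CDO1. The counted BHMT gene (chr2:87866607-87935253, plus strand) contained the whole RefSeq gene BHMT2 (chr2:87866631-87882623), a neighbouring homolog, as well as RefSeq BHMT (chr2:87911093-87935252), and 583 bases of DMGDH on the opposite strand. BHMT2 was matched to no entry of its own, so the BHMT counts may hold reads of both, and the FPKM of BHMT is scaled to a length of 8608 bases that covers the joint model. The counted CDO1 gene (chr2:119892691-119940665, minus strand) contained the long noncoding RNAs LOC100522542 and LOC106509530 beside RefSeq CDO1 (chr2:119927768-119940690), and its length was 5691 bases. The counted CTH gene (chr6:142435690-142486367, minus strand) contained RefSeq CTH alone (chr6:142454922-142486352), but was also wider, at 50678 bases against 31431. Whether reads were counted by strand is not given in the sources used here.

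**Figure D3:**
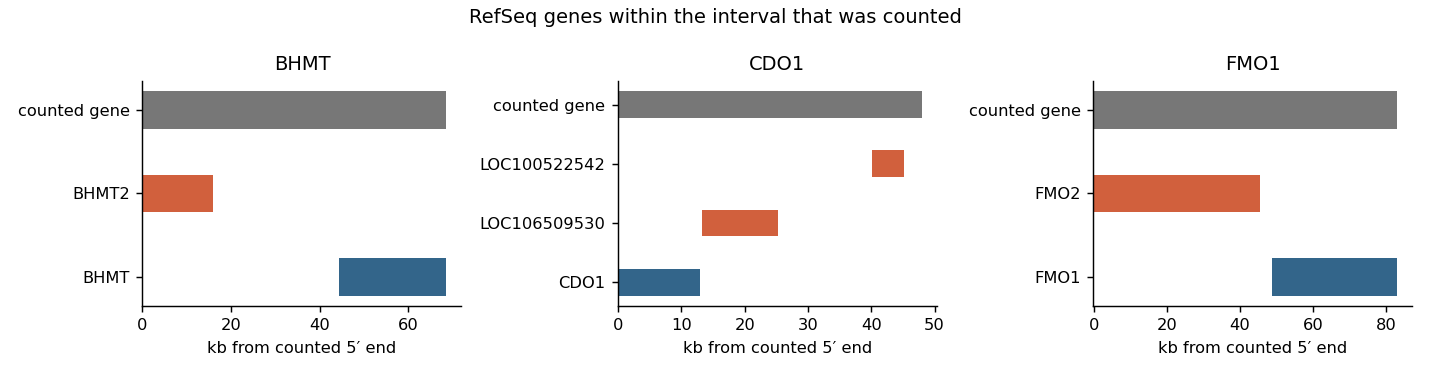
Extent of the interval counted as BHMT, CDO1 and FMO1 (grey) and of the RefSeq genes that lie mostly within it, the gene of that name in blue and others in red, in kb from the 5′ end of the counted interval. BHMT2 and FMO2 lie within the intervals counted as BHMT and FMO1, and 2 noncoding RNAs within that counted as CDO1.

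For the other enzymes the value used is the authors' mean normalized count, taken over libraries that the sources do not name, and no comparison of the groups was made. MAT1A, the S-adenosylmethionine synthetase of adult liver, had a mean of 13158, and MAT2A, the form of other tissues and of fetal liver, a mean of 2006. GNMT, which uses up excess S-adenosylmethionine by methylating glycine, had a mean of 5014. AHCY, which hydrolyses S-adenosylhomocysteine to homocysteine, had a mean of 4324. CBS, which joins homocysteine and serine to cystathionine ahead of CTH, had a mean of 3799. CSAD, which decarboxylates cysteine sulfinate after CDO1, had a mean of 782. PEMT, which makes phosphatidylcholine with methyl groups of S-adenosylmethionine, was not analysed here. These means are not scaled to gene length and give no order of abundance between enzymes.

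Around the members, a list of 77 genes of methionine, methyl group, cysteine, taurine and glutathione metabolism was examined, of which 66 were found and 10 had counts per library. Of the 10, 8 were called lower and 2 higher with PN, beside 45.7% lower and 54.2% higher among all genes tested. None of the 10 overlapped between the groups. Among all genes tested, 42.2% did not overlap with PN lower and 44% with PN higher. The median log2 fold change of the 10 was -1.20, beside 0.99 over all 994 genes. Those 994 were picked for change in either direction, so their median is set by the share of higher genes. The median of the 8 lower genes was -1.32, beside -1.44 over all 454 lower genes. Counts per library were found for 4 of 21 genes of cysteine, sulfide and taurine handling and 4 of 21 of methyl transfer, betaine and folate. They were found for 1 of 16 of the methionine cycle and salvage, 1 of 10 of glutathione and 0 of 9 of cofactor supply. Over the whole series 1054 genes had them, and the authors' table of all genes held 16223. Only genes picked by the authors on this contrast had such counts, so these are numbers of genes so picked.

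In cysteine and taurine handling, FMO1, GOT1, SLC6A12 and SQOR were lower with PN. FMO1, a flavin monooxygenase that oxidises hypotaurine to taurine, had normalized counts of 16485, 22199 and 21177 in bottle-fed livers 1 to 3. It had 3797, 6381, 4669, 3586 and 7774 in PN livers 1, 2, 3, 4 and 6 and 7186 in PN liver 5, a log2 fold change of -1.93 (SE 0.30, adjusted p = 0.000258 by edgeR). The groups were far apart, but the counted FMO1 gene also spanned RefSeq FMO2. SLC6A12, a transporter of betaine and GABA, had 2755, 3308 and 3453 in bottle-fed livers and 1461, 1951, 1711, 1193 and 1055 in PN livers 1, 2, 3, 4 and 6, with 881 in PN liver 5 (log2 fold change -1.10, SE 0.25). Its counted gene shared 18625 bases with IQSEC3 on the opposite strand. GOT1, the cytosolic aspartate aminotransferase, which also transaminates cysteine sulfinate, ranged from 2113 to 3014 in bottle-fed livers and from 941 to 1765 in the 6 PN livers (log2 fold change -0.99, SE 0.25). SQOR, the mitochondrial enzyme that oxidises hydrogen sulfide, had normalized counts of 1494, 1428 and 1683 in bottle-fed livers 1 to 3. It had 875, 532, 913, 424 and 381 in PN livers 1, 2, 3, 4 and 6 and 793 in PN liver 5, a log2 fold change of -1.30 (SE 0.30, adjusted p = 0.00225 by edgeR). The groups did not overlap, and PN livers 1, 3 and 5 were the highest of theirs.

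Among methyl transfer genes, GATM and ALDH1L1 were lower and NNMT was higher with PN. GATM, which starts creatine synthesis and so provides the acceptor of a main methylation reaction of the liver, had the largest decrease of the list. Its normalized counts were 7813, 19088 and 25649 in bottle-fed livers 1 to 3 and 1551, 1417, 2290, 925 and 906 in PN livers 1, 2, 3, 4 and 6, with 1724 in PN liver 5. Bottle-fed liver 1 was low for its group but above every PN liver, and the log2 fold change was -3.63 (SE 0.41, adjusted p = 4.3e-05 by edgeR). ALDH1L1, which releases the one-carbon unit of formyl folate as carbon dioxide, had 1142, 1231 and 2258 in bottle-fed livers 1 to 3 and from 614 to 1116 in the 6 PN livers. Its log2 fold change was -0.98 (SE 0.28, adjusted p = 0.00647 by edgeR) and -0.60 without bottle-fed liver 3 (adjusted p = 0.0599), the liver that stood above the other bottle-fed livers.

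NNMT, which spends S-adenosylmethionine on nicotinamide, had normalized counts of 1418, 847 and 1089 in bottle-fed livers 1 to 3. It had 1628, 2773, 13674, 2185 and 2179 in PN livers 1, 2, 3, 4 and 6 and 4709 in PN liver 5. PN liver 3 stood far above the rest. The log2 fold change was 2.00 (SE 0.70, adjusted p = 0.0161 by edgeR), and 0.97 without that liver. Without bottle-fed liver 2 the adjusted p was 0.0603.

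Of the remaining genes, SAT1, which acetylates polyamines made from S-adenosylmethionine, was higher with PN, and CHAC2, which degrades glutathione, was lower. SAT1 had 3345, 4465 and 3135 in bottle-fed livers 1 to 3 and 6084, 5538, 6439, 5975 and 12565 in PN livers 1, 2, 3, 4 and 6, with 17731 in PN liver 5. Its log2 fold change was 1.00 (SE 0.32, adjusted p = 0.0104 by edgeR), with the highest values in PN livers 5 and 6. The counted SAT1 gene overlapped that counted as ACOT9 on the opposite strand. CHAC2 was near the lower limit of these data, from 41.7 to 45.8 in the bottle-fed livers and 20.5, 3.38, 17.3, 20.4 and 24.0 in PN livers 1, 2, 3, 4 and 6, and 15.5 in PN liver 5. Its log2 fold change was -1.37 (SE 0.53, adjusted p = 0.0230 by edgeR), and the adjusted p was 0.0592 without bottle-fed liver 1 and 0.0566 without bottle-fed liver 2. CHAC2 lies wholly within ASB3 of the opposite strand.

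**Figure D4:**
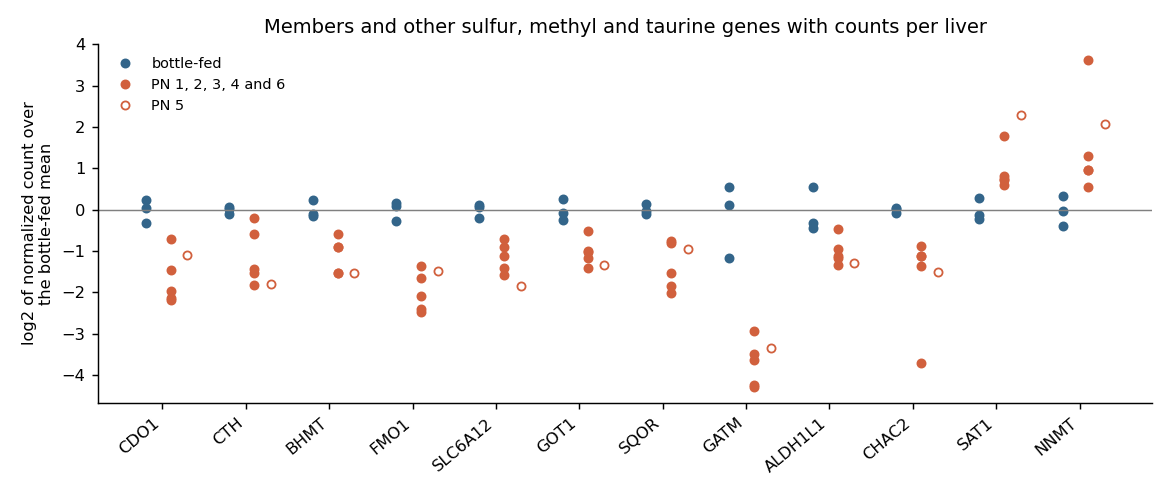
log2 of the normalized count over the bottle-fed mean, in each bottle-fed (blue) and PN liver (red, with PN liver 5 as open points), for the 3 members and 9 genes of the wider list. Every PN point lies below every bottle-fed point for the first 10 genes and above for SAT1 and NNMT, and GATM has the lowest points.

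**Figure D5:**
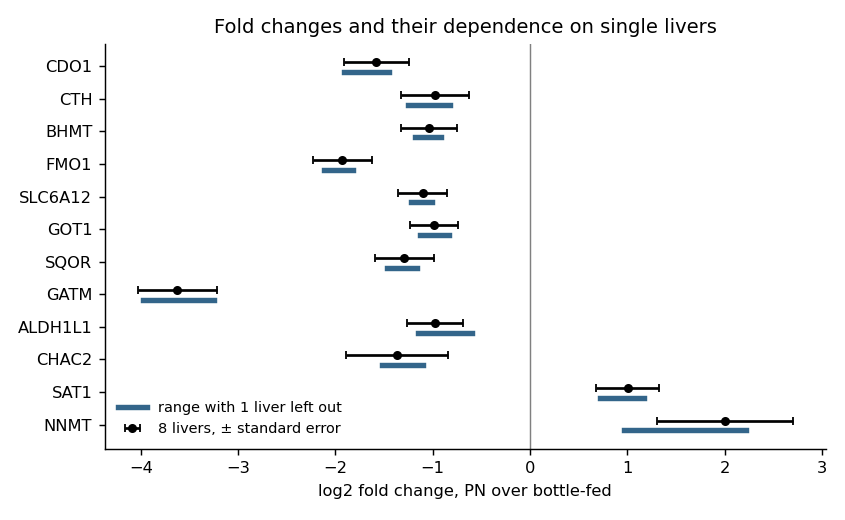
log2 fold change of PN over bottle-fed livers for the same 12 genes, with its standard error (black), and its range when each of the 8 livers was left out in turn (blue). No range reaches 0, and that of NNMT is the widest, from 0.97 to 2.22.

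Markers of cell type with counts per library also differed between the groups, but they were among the genes picked by the authors on this contrast. A difference in them was therefore set in advance. Of 8 hepatocyte markers only CPS1 had counts per library, at 49685 to 58313 in the bottle-fed group and 5290 to 48854 over the 6 PN livers, and the other 7 had the authors' mean alone, which was 1886800 for ALB, 553110 for TF, 185161 for APOA1, 77155 for APOB, 49451 for TTR and 3927 for HNF4A but 28.9 for SERPINA1. Relative to the bottle-fed mean, CPS1 was at 90.6% in PN liver 3, where CTH was at 87.0%, and at 9.81% in PN liver 5, where CTH was at 28.6%. In PN liver 6 CPS1 was at 34.2% and CTH at 66.9%, and in PN liver 1 at 44.9% and 28.2%. CPS1 and CTH were at 42.5% and 37.2% in PN liver 2, and at 38.5% and 34.8% in PN liver 4. The summed level of 3 of 6 bile duct markers, EPCAM, KRT7 and SPP1, was 239 to 329 in the bottle-fed group and 637 to 2216 in the PN group. That of the endothelial marker VWF, 1 of 6, ran from 275 to 385 and from 392 to 1208, and that of the neutrophil marker CSF3R, 1 of 7, from 8.07 to 22.9 and from 17.6 to 114. Of 8 markers of stellate cells and fibroblasts, 2 had counts per library and moved in opposite directions, DCN with a log2 fold change of -1.50 (adjusted p = 0.00756 by edgeR) and DES with 0.95 (adjusted p = 0.00293), and their sum ran from 342 to 935 and from 542 to 990. None of 11 macrophage and 7 erythroid markers had counts per library. The part of cell composition in the lower enzyme levels was not tested.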

How the data were processed

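RNA-Seq libraries of liver mRNA from 9 preterm piglets, 3 bottle-fed and 6 given PN, were analysed. Per the submitters' processing notes, the authors used HISAT2 2.0.5 for mapping to the Sscrofa11.1 genome and featureCounts 2.0.3 for counting, and DESeq2 1.26.0 is also named there (the paper names another version). The deposited counts are raw reads per gene and library for 1054 genes, each past the authors' own adjusted p of 0.05 and a log2 fold change of 1, so a pathway gene without counts here may have been left out by that selection. The deposited FPKM values scale counts by gene length and library total. The deposited normalized signal is the count divided by 1 size factor per library, and the mean signal in the authors' table of 16223 genes is the authors' mean. The log2 fold changes, their standard errors, score and p-value columns that the authors deposited hold their own comparison and were not used beyond checking that selection.

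Counts were tested here with edgeR 4.0.16 in R 4.3.3 (quasi-likelihood test, the authors' size factors as offsets, filterByExpr, Benjamini-Hochberg adjustment over 994 genes), over 8 libraries without PN 5. The adjustment covers genes already selected, so its p-values are too small as evidence. The members were also compared by exact permutation (two-sided) of log2 normalized counts, with 1 added first, p being the share of splits whose absolute difference was at least as large. Correlations used the absolute coefficient in the same way. Values cover the spread between these animals only. The edgeR fit was tested on simulated data in which most genes did not change. That setting differs from a table of picked genes, so the test does not bear on the p-values given here. Among 36 pairs of libraries none was near-identical (chi-square over its degrees of freedom at least 71.8). Symbols matched 12470 of 16223 identifiers, and 35 of 262 genes without a name in the count table were named by their Ensembl identifier. Alternatives were all 9 libraries, DESeq2 1.42.0, TMM, library totals, no filter, other pseudocounts, each library left out and a replicate block. Named genes were the members, listed pathway genes with counts per library, and the 3 genes most like each member. Of the pathway genes with counts per library, 1 is counted but not reported by name here. The members, lists and motifs were chosen with earlier results of these data known. Other calculations ran in Python 3.11.15 with scipy 1.17.1, pandas 2.3.3 and numpy 2.4.6, and plots in matplotlib 3.10.9.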

Additional observations from a re-analysis of the deposited data

Results flagged for a closer look

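In 26 groups of PN livers examined, the 13 genes each over 5 and over 6 livers, a single liver stood apart from the rest in 4. Chance gives about 1 in 20 for a single group. The 5 livers are contained in the 6, so the groups are not independent, and no excess over chance can be read from the 4. For SAT1, PN liver 6 (12565 normalized counts) was separated from the next of the 5 livers by 0.816 of their log2 range. For NNMT, PN liver 3 (13674) was separated by 0.750 of the range over the 5 livers. For CHAC2, PN liver 2 (3.38) was separated by 0.822 of the range over the 5 livers and by 0.763 over all 6. CDO1, CTH and BHMT had no such liver in either set.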

How the results depend on the processing

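Among 275 alternative values, no fold change and no difference in an exact test changed direction. The other values are numbers of genes called, which have no direction. For genes picked on this contrast the direction was largely set by that selection. The fold changes of the members kept their side of the threshold in 44 alternatives and lost it in 1, and those of the other 10 genes kept it in 144 and lost it in 5. With 1 library left out, the log2 fold change ran from -1.91 to -1.45 for CDO1, from -1.26 to -0.82 for CTH and from -1.18 to -0.91 for BHMT, and 2 to 3 members were called. DESeq2 gave NNMT no adjusted p. The number of all genes called ran from 861 to 1052.

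The exact permutation test called the 3 members with all 9 libraries (p = 0.0119 for BHMT and CDO1 and 0.0357 for CTH) and with either other pseudocount. The p by absolute difference was adopted after the data had been seen with the smaller one-sided p doubled, which gave 0.0357 for each member and which cannot pass the threshold with any library left out (0.0571 or 0.0952 at the least). With 1 of the 8 libraries left out, the call was lost in 8 of 8 cases for CTH (p from 0.0571 to 0.143), 4 for CDO1 (0.0286 to 0.0571) and 3 for BHMT (0.0286 to 0.0952), where the smallest p possible was 0.0286 without a PN liver and 0.0476 without a bottle-fed liver.

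With the replicate block over the 3 shared numbers the log2 fold changes were -1.10 for BHMT, -1.16 for CTH and -1.68 for CDO1, and 861 genes were called, against 914 in the same 6 libraries unpaired, an alternative added after seeing the data. SAT1 was then at 0.74 (adjusted p = 0.0643). The deviations of livers of the same number had r from -0.05 to -0.02, beside -0.11 to 0.12 for livers of different numbers. So few pairs cannot decide whether the number pairs animals. The groups came from separate sows, so it pairs no littermates. The list of pathway genes never held the members, so leaving them out gave no other count. CHAC2 had the lowest counts of the 13 genes, and its value is the least precise for depth.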
